A study of Mus musculus with 6 samples.

Results

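A set of 10 genes of the hepatocyte growth factor (HGF), EGF-family and neuregulin signals was examined in cancer-associated fibroblasts (CAFs) of mouse mammary tumors: the ligand genes Hgf, Areg, Ereg, Hbegf, Btc, Tgfa, Nrg1 and Nrg2, and the receptor genes Egfr and Erbb3. They were picked by symbol, as growth factor and receptor genes, from a count table of 27179 genes. All 10 were in the table, and 9 passed the filter on low counts, which left out Btc. The study sorted CAFs by flow cytometry from 3 raGFP-Wnt1 tumors and sequenced poly(A) RNA of the CD34- and the CD34+ fraction of each tumor, which gave 6 libraries, 3 per group. The strain raGFP-Wnt1 joins a Pdgfra H2B-GFP knock-in reporter, which marks cells that use the Pdgfra promoter, with the MMTV-Wnt1 transgene, in which a mammary tumor virus promoter drives Wnt1. Both groups carry both alleles, neither received a treatment, and they differ in the CD34 gate alone. The age of the mice is not given in the sources used here, nor is it stated that each tumor came from its own mouse. The comparison asks whether the 2 CAF fractions differ in the growth factor messages they carry and in the receptors that could receive such messages.

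Ligands of the EGF family are made as membrane-anchored precursors that proteases such as ADAM17 shed, and they bind EGFR, ErbB4 or both. Neuregulins bind ErbB3 and ErbB4, which pair with ErbB2, a receptor without a ligand of its own. HGF is a secreted, mostly fibroblast-derived protein that acts on epithelial cells through the receptor Met, and in the mammary gland epithelial amphiregulin acts on EGFR of stromal cells during ductal growth.

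Libraries held between 16238059 and 86609267 counts over genes. Values are given as CPM, counts relative to the total of their library, with libraries made comparable by TMM factors, which correct for differences in RNA makeup, and fold changes are log2 of CD34- over CD34+ CAFs with their standard error (SE). Libraries are listed in the order of tumors 1, 2 and 3. Cd34 itself, which was used to sort the cells, stood at 74.3 ± 30.2 CPM in CD34- and 948 ± 571 CPM in CD34+ CAFs (mean ± SD, n = 3). The CD34- library of tumor 3 stood apart from the others: 159 genes that averaged at least 2 CPM elsewhere had no count in it, against 1 to 31 such genes in the other libraries. Fibroblast markers summed to between 68153 and 94279 CPM in CD34- and between 77412 and 94300 CPM in CD34+ CAFs. Epithelial markers, led by Krt8, summed to 199.995, 171 and 67.1 CPM in CD34- and to 166, 113 and 24.4 CPM in CD34+ CAFs. Immune markers summed to at most 20.0 CPM in any library, and pericyte markers, led by Cspg4, to between 211 and 236 CPM in CD34- and between 86.8 and 188 CPM in CD34+ CAFs. The pericyte markers did not move together: with the tumor as a block, limma-voom called 3 of 6 higher and 2 lower in CD34- CAFs, the 2 being Abcc9 (-1.71, adjusted p = 0.0123) and Kcnj8 (-2.31, adjusted p = 0.0161). In such bulk libraries, fewer cells of a type and less RNA per cell cannot be told apart.

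Of the 9 members tested, 0 passed limma-voom with Benjamini-Hochberg adjustment over 14855 genes, against 18 genes, or 0.121%, in the whole table. An unadjusted p under 0.05 by limma-voom was found for 1 of the 9 members and for 2128 of all 14855 genes tested. Without the tumor, edgeR and DESeq2 called 0 members, and 9 and 698 genes in the whole table. With the tumor as a block, which sets the 2 fractions of one tumor against each other, the same tool called 1273 genes, or 8.57%, with 4.25% lower and 4.32% higher in CD34- CAFs. In that fit 1 of the 9 members passed, Egfr, and it was lower in CD34- CAFs. Egfr was also the 1 member whose groups did not overlap, where 20.4% of all genes tested had groups that did not overlap. Egfr and Nrg2 were lower in the CD34- library of all 3 tumors, and no member was higher in all 3, where 46.3% of all genes tested had the same sign in the 3 tumors. Without the block, the median log2 fold change was -0.59 over the 9 members and -0.03 over all genes tested. The -0.59 is the value of Egfr itself. Of the members below it, Areg, Nrg2 and Erbb3 had 0, 0 and 1 counts in the CD34- library of tumor 3. With the block in limma-voom, they stood at -0.23, -2.01 and 0.37.

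**Figure D1:**
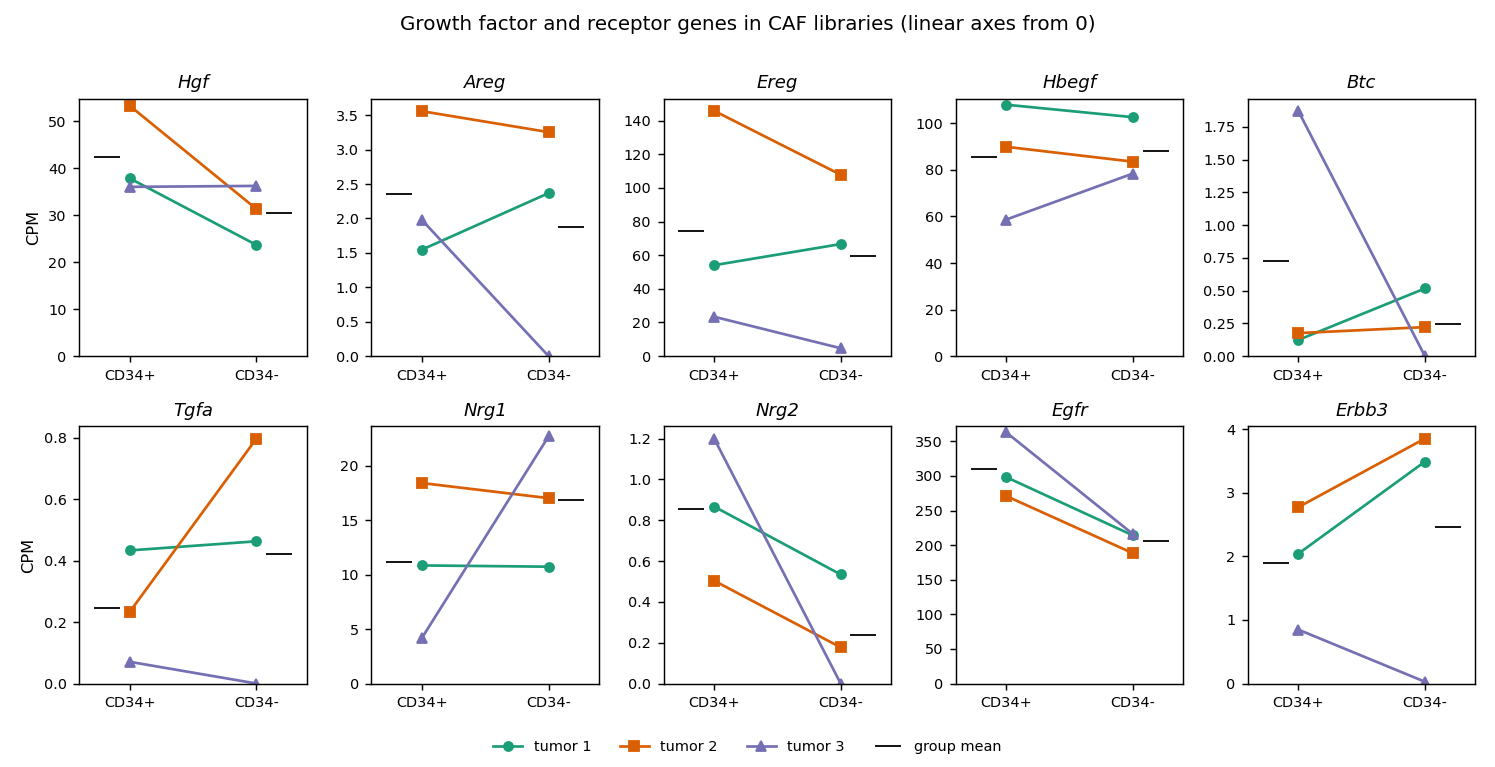
CPM of the members in each library (linear axes from 0), with CD34+ CAFs on the left and CD34- CAFs on the right of each panel, a line joining the 2 fractions of a tumor and a short bar at the group mean. Egfr was between 271 and 363 CPM in CD34+ and between 188 and 216 CPM in CD34- CAFs, and the groups of every other member overlapped.

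Egfr, the receptor of HB-EGF, amphiregulin, epiregulin, betacellulin, TGF-alpha and EGF (GRCm38.p6, chromosome 11, bases 16752203 to 16913907), was at 214, 188 and 216 CPM in CD34- and at 298, 271 and 363 CPM in CD34+ CAFs. The lowest CD34+ library was above the highest CD34- library, and the mean was 206 ± 15.5 against 311 ± 47.2 CPM (SD, n = 3), a ratio of 1.51. The log2 fold change was -0.59 ± 0.18 (SE), with a 95% interval from -1.0 to -0.19 and an adjusted p of 0.188 by limma-voom. With the tumor as a block it was -0.58 ± 0.13, with an interval from -0.87 to -0.30 and an adjusted p of 0.0211 by limma-voom. Within the tumors the log2 ratios were -0.48, -0.52 and -0.75. The call depended on the tool and on tumor 2: edgeR with the block gave an adjusted p of 0.0699, DESeq2 with the block 0.000762, and limma-voom with the block but without tumor 2 gave 0.100. The antisense gene Egfros, which overlaps Egfr, held 73 counts over all libraries against 66631 for Egfr. How reads that overlap both genes were counted is not given, and their part in the Egfr values was not tested.

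Erbb3, a neuregulin receptor with little kinase activity of its own (chromosome 10, bases 128567523 to 128589635), was near the bottom of the range. It was at 3.49, 3.85 and 0.03 CPM in CD34- and at 2.04, 2.77 and 0.85 CPM in CD34+ CAFs. The CD34- library of tumor 3 held 1 count, whereas the others held between 24 and 237. The groups overlapped, and limma-voom gave -0.95 ± 1.43 with an adjusted p of 0.798. The sign turned with the tumor as a block, to 0.37 ± 0.60 with an adjusted p of 0.779 by limma-voom. The epithelial marker sum was lowest in the tumor 3 libraries, at 67.1 CPM in CD34- and 24.4 CPM in CD34+ CAFs. Within tumor 3 its order was thus the reverse of that of Erbb3. The part of the epithelial marker sum in the Erbb3 values was not tested.

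The other receptors listed were Met, Erbb2, Erbb4 and Mst1r. Met, the HGF receptor (chromosome 6, bases 17463349 to 17573980), was at 4.63, 2.3 and 2.53 CPM in CD34- and at 15.97, 4.92 and 9.07 CPM in CD34+ CAFs. The groups did not overlap, and the mean of the CD34+ group was 3.17 times that of the CD34- group. By limma-voom the log2 fold change came to -1.13 ± 0.54 (adjusted p = 0.393). With the tumor as a block Met was lower in CD34- CAFs, at -1.61 ± 0.36 with a 95% interval from -2.42 to -0.80 and an adjusted p of 0.0247 by limma-voom. Met passed in DESeq2 without the block (0.0481) and missed the threshold in edgeR with the block (0.0630), nor in limma-voom with the block once tumor 1 was left out (0.288). Endothelial markers summed to between 11.4 and 34.2 CPM in CD34- and between 56.7 and 123 CPM in CD34+ CAFs. Tek, at 8.46 ± 4.31 against 76.7 ± 34.7 CPM (SD, n = 3), made up most of the sum in the CD34+ libraries only. The markers did not share a direction. Like Tek, Kdr (3.51 against 7.17) and Pecam1 (3.15 against 5.53) had the lower mean CPM in CD34- CAFs. Cdh5 (1.97 against 0.751), Vwf (2.68 against 0.711) and Tie1 (0.783 against 0.239) had the higher mean CPM in CD34- CAFs. The study's methods name GFP as the gate for these tumor fractions, and whether endothelial cells were also gated out is not given there for these libraries. The part of endothelial markers in the Met values was not tested.

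Erbb2, the shared partner of the ErbB receptors, was at 17.4, 18.4 and 34.8 CPM in CD34- and at 16.6, 14.6 and 18.1 CPM in CD34+ CAFs, and its log2 fold change of 0.45 ± 0.31 had an adjusted p of 0.537 by limma-voom. Reads of Erbb2 can be shared with the overlapping gene Mien1, which held 6464 counts against 5108 for Erbb2. Mst1r, the receptor of macrophage-stimulating protein, was at 26.0, 28.3 and 26.8 CPM against 21.4, 23.3 and 29.1 CPM, with a log2 fold change of 0.14 and an adjusted p of 0.778 by limma-voom. Erbb4 had at most 6 counts in any library and was not tested. Per kb of annotated gene length, Egfr stood at 9.56, 7.93 and 4.82 times Erbb2 in CD34- and at 14, 14.4 and 15.6 times Erbb2 in CD34+ CAFs, so that Egfr was the higher of the 2 in every library.

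Promoter sequences of Egfr and Met are shown because these were the receptor genes that passed with the tumor as a block. Each runs 5′ to 3′ from 250 bases before to 50 after a gene start listed by RefSeq in GRCm38.p6, on the plus strand, which for Egfr is the start given above and for Met lies inside the interval given above, with matches to the GC box GGGCGG, on either strand, in capitals.
Egfr, chr11:16751953-16752252: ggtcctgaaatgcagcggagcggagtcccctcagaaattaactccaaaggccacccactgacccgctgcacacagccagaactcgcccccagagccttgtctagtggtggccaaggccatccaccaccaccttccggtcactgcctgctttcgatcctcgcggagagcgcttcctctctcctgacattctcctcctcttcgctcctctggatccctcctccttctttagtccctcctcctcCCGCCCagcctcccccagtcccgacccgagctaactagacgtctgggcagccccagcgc
Met, chr6:17463707-17464006: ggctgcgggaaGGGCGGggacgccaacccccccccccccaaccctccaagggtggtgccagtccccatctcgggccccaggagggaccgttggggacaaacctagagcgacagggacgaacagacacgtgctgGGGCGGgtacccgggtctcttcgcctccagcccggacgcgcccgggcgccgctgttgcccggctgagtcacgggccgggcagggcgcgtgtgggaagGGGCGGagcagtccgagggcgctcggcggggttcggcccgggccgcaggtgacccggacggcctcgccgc
The Egfr window held 1 GC box and the Met window 3, and neither held the TATA box TATAAA on either strand. Of 32851 mouse promoters of that length, 35.66% held at least 1 GC box and 13.62% a TATA box. The G and C content was 62.3% for Egfr and 75.7% for Met, where the median promoter had 52.67%. A match is a description of letters and says nothing of binding.

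**Figure D2:**
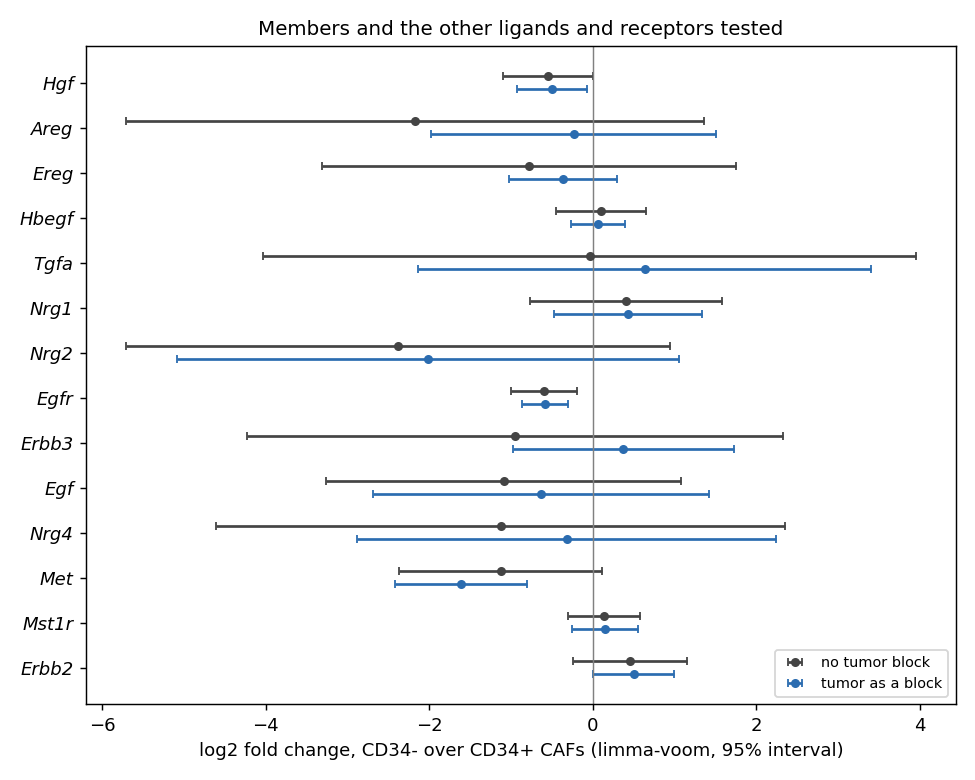
Log2 fold change of CD34- over CD34+ CAFs for the 9 members tested, the other receptors and the other ligands, with 95% intervals, from limma-voom without and with the tumor as a block. The intervals are not adjusted for the number of genes. Those of Egfr lay below 0 in both fits, from -1.0 to -0.19 and from -0.87 to -0.30. With the block, those of Hgf (-0.93 to -0.07) and Met (-2.42 to -0.80) also lay below 0. That of Erbb2 (0.0065 to 0.994) lay above 0 with the block. The intervals of Areg, Tgfa, Nrg2 and Erbb3 were widest among the members.

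Hgf, the HGF precursor gene (chromosome 5, bases 16553495 to 16619439), was at 23.7, 31.3 and 36.2 CPM in CD34- and at 37.8, 53.2 and 36.0 CPM in CD34+ CAFs. In tumors 1 and 2 the CD34+ library was the higher, and in tumor 3 the 2 fractions were level, so that the groups overlapped. The log2 fold change was -0.55 ± 0.24 with a 95% interval from -1.10 to 0.01 and an adjusted p of 0.353 by limma-voom. The block gave -0.50 ± 0.19 with a 95% interval from -0.93 to -0.07, not adjusted for the number of genes, and an adjusted p of 0.15 by limma-voom. The value rested on single tumors: in limma-voom with the block it was -0.74 without tumor 3 (adjusted p = 0.0100), -0.31 without tumor 2 (adjusted p = 0.767) and -0.45 without tumor 1 (adjusted p = 0.342).

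Hbegf, which encodes HB-EGF, a heparin-binding ligand of EGFR and ErbB4 (chromosome 18, bases 36504927 to 36515805), was at 103, 83.5 and 78.4 CPM in CD34- and at 108, 89.9 and 58.7 CPM in CD34+ CAFs. The groups overlapped throughout, and limma-voom put the log2 fold change at 0.10 ± 0.24 (adjusted p = 0.883). Its 95% interval ran from -0.46 to 0.66, so that a change of that size in either direction could not be told from none.

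Ereg, which encodes epiregulin, a ligand of EGFR and ErbB4 (chromosome 5, bases 91074617 to 91093649), was at 66.6, 108 and 4.68 CPM in CD34- and at 54, 146 and 23.4 CPM in CD34+ CAFs. Ereg varied more between tumors than between fractions, with tumor 2 highest and tumor 3 lowest in both groups. By limma-voom the log2 fold change came to -0.78 ± 1.10 (adjusted p = 0.782), and the SE came down to 0.29 with the tumor as a block, at -0.37 and an adjusted p of 0.521. The tumor 3 libraries were also lowest in the epithelial marker sum, at 67.1 CPM in CD34- and 24.4 CPM in CD34+ CAFs. Within tumor 3 Ereg had the reverse order, and the part of the sum in the Ereg values was not tested.

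Areg, which encodes amphiregulin, the estrogen-induced EGFR ligand of the mammary gland (chromosome 5, bases 91139599 to 91148432), was at 2.37 and 3.25 CPM in the CD34- libraries of tumors 1 and 2 and at 1.55, 3.56 and 1.98 CPM in CD34+ CAFs. The CD34- library of tumor 3 had no count, which allows up to 0.0825 CPM, covering counting error only. Apart from that library the groups overlapped, and limma-voom gave a log2 fold change of -2.18 ± 1.54 with an adjusted p of 0.560. With the tumor as a block limma-voom gave -0.23 ± 0.78. The other tools went the other way with the block, from -0.34 to -1.17 in edgeR and from -0.35 to -1.28 in DESeq2. Ereg, Areg and Btc are the only protein-coding genes between the ends of Ereg and Btc on chromosome 5.

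Btc and Tgfa, which encode the EGFR ligands betacellulin and TGF-alpha, had low counts in all libraries. Btc (chromosome 5, bases 91357261 to 91402994) had 29, 10 and 0 counts in CD34- and 2, 15 and 53 counts in CD34+ CAFs and was not tested. Tgfa (chromosome 6, bases 86195038 to 86275744) had 26, 36 and 0 counts in CD34- and 7, 20 and 2 counts in CD34+ CAFs, and its log2 fold change of -0.04 ± 1.75 had an adjusted p of 0.995 by limma-voom. In limma-voom the sign of Tgfa turned with the block, to 0.63 ± 1.23, whereas DESeq2 went from 0.78 without the block to -0.20 with it. In tumor 3, Btc was at 1.87 CPM in the CD34+ library, against no count in the CD34- library. The exact Poisson 95% interval of the 1.87 CPM ran from 1.4 to 2.45 CPM and covers counting error only. In tumors 1 and 2 the CPM of Btc was higher in the CD34- library, but the Poisson intervals of the 2 fractions overlapped. They were 0.346 to 0.742 against 0.015 to 0.447 CPM in tumor 1, and 0.106 to 0.407 against 0.098 to 0.290 CPM in tumor 2. Of the other ligands, Egf was at 0.77, 0.97 and 0.11 CPM against 0.74, 1.11 and 1.13 CPM, with an adjusted p of 0.640 by limma-voom, and Epgn, the epigen gene, was under 1 CPM throughout and was not tested.

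Per kb of annotated gene length, Hbegf and Ereg made up most of the summed CPM of the 7 EGFR ligand genes Hbegf, Ereg, Areg, Btc, Tgfa, Egf and Epgn. Hbegf took 69.8%, 54.3% and 96.6% of the sum in CD34- and 75.4%, 49.5% and 75.1% in CD34+ CAFs. Ereg took 26.0%, 40.2% and 3.31% in CD34- and 21.7%, 46.1% and 17.2% in CD34+ CAFs. The 2 fractions of tumors 1 and 2 were closer to each other in these shares than the 2 fractions of tumor 3. The sum was 61.9, 64.8 and 34.2 CPM per kb in CD34- and 60.3, 76.5 and 32.9 CPM per kb in CD34+ CAFs, lowest in tumor 3 in both groups.

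**Figure D3:**
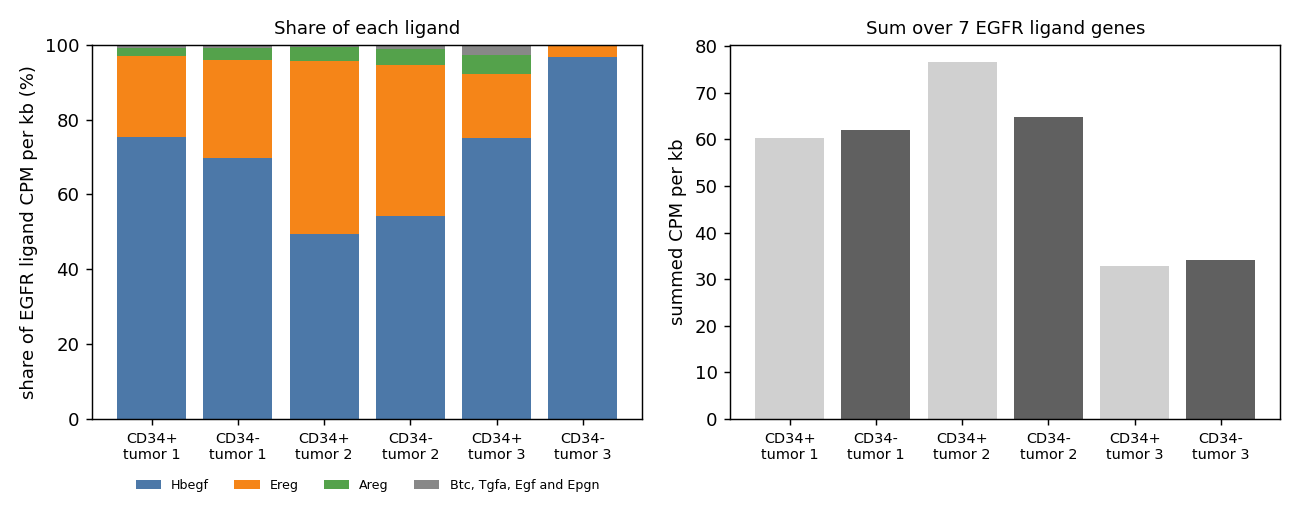
Left, the share of each EGFR ligand gene in the summed CPM per kb (%), and right, the sum in CPM per kb, one bar for each library in the order of tumors with the CD34+ fraction before the CD34- fraction. Hbegf made up 96.6% of the sum in the CD34- library of tumor 3 and between 49.5% and 75.4% in the others.

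Nrg1, which encodes neuregulin 1, a ligand of ErbB3 and ErbB4 (chromosome 8, bases 31807452 to 32891609), was at 10.7, 17.0 and 22.7 CPM in CD34- and at 10.8, 18.4 and 4.20 CPM in CD34+ CAFs. In tumors 1 and 2 the fractions were level, with log2 ratios of -0.02 and -0.11, and in tumor 3 the CD34- library was higher, with a log2 ratio of 2.43. By limma-voom the log2 fold change came to 0.41 ± 0.51 (adjusted p = 0.755). Nrg2, a related neuregulin gene (chromosome 18, bases 36014581 to 36197532), had 30, 8 and 0 counts in CD34- and 14, 43 and 34 counts in CD34+ CAFs. It was lower in the CD34- library of each tumor, at 0.53, 0.18 and 0 CPM against 0.87, 0.50 and 1.20 CPM, and the log2 fold change of -2.38 ± 1.46 had an adjusted p of 0.495 by limma-voom. The overlapping gene Psd2 held 324 counts against 129 for Nrg2, and reads shared between them could not be told apart. Of the other members of these families, Nrg4 had a log2 fold change of -1.13 with an adjusted p of 0.772 by limma-voom, Nrg3 had at most 6 counts in any library, and Mst1, the gene of macrophage-stimulating protein, had 87 counts in the CD34- library of tumor 3 and at most 7 elsewhere.

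Per kb, the order of the levels in CD34- CAFs was Hbegf (37.1 ± 5.38 CPM per kb, SD, n = 3), Egfr (32.0 ± 2.40), Ereg (14.4 ± 12.6), Hgf (11 ± 2.3), Nrg1 (7.99 ± 2.84), Areg (1.56 ± 1.4) and Erbb3 (0.611 ± 0.525), with Tgfa, Btc and Nrg2 at 0.0993 CPM per kb or less. Of neighbours in that order, only Egfr and Ereg, and Nrg1 and Areg, had ranges that did not overlap. In CD34+ CAFs the order was Egfr (48.2 ± 7.34 CPM per kb), Hbegf (36.0 ± 10.5), Ereg (18 ± 15.4), Hgf (15.4 ± 3.44), Nrg1 (5.30 ± 3.38), Areg (1.97 ± 0.884), Erbb3 (0.470 ± 0.242), Nrg2, Btc and Tgfa, the last 3 at 0.302 CPM per kb or less. There only Hgf and Nrg1, and Areg and Erbb3, had ranges that did not overlap. Among all genes tested, the mean level per kb over the 6 libraries put Egfr above 89.5% and Hbegf above 88.6% of genes, Ereg above 76.2%, Hgf above 71.9%, Nrg1 above 55.0%, Areg above 27.9% and Erbb3 above 13.8%.

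Around the members, 70 further pathway genes were listed by role, of which 66 were tested. Of these, 0 passed in limma-voom without the tumor, and 15 had an unadjusted p under 0.05, as did 2128 of all 14855 genes tested. Without the tumor, DESeq2 called 6 of the 66, and 698 genes in the whole table. With the tumor as a block limma-voom called 11 of the 66, or 16.7%, beside 8.57% of all genes, 7 of them higher and 4 lower in CD34- CAFs, and edgeR with the block called 5. In the shedding list, 2 of 11 genes were higher and 0 lower with the block in limma-voom. Of all genes tested, 4.32% were higher and 4.25% lower in that fit. Rhbdf2, the iRhom2 gene, whose product carries ADAM17 to the cell surface, was at 35.2, 47.3 and 33.8 CPM in CD34- and at 7.61, 10.2 and 3.42 CPM in CD34+ CAFs. The groups were far apart, at a ratio of means of 5.48 and a log2 fold change of 2.35 ± 0.37, with an adjusted p of 0.0686 by limma-voom and of 0.00123 with the block (2.40 ± 0.26). Rhbdf2 also passed with the block in edgeR (0.0121) and in DESeq2 (2.94e-14). Timp3, an inhibitor of ADAM17 and other metalloproteases, was at 1459, 3914 and 3223 CPM against 1302, 2011 and 827 CPM, with a block log2 fold change of 1.03 and an adjusted p of 0.0479 by limma-voom, which edgeR with the block (0.155), DESeq2 with the block (0.367) and limma-voom with the block but without tumor 3 (0.0863) did not call.

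Of 16 genes that ERK signaling is known to induce, 4 were higher and 2 lower in CD34- CAFs with the block in limma-voom, where 4.32% of all genes tested were higher and 4.25% lower. The median log2 fold change without the block was 0.39 over the list and -0.03 over all genes tested. Dusp4, a nuclear MAP kinase phosphatase gene, was at 55.9, 57.9 and 35.2 CPM in CD34- and at 16.0, 22.6 and 5.93 CPM in CD34+ CAFs, with a block log2 fold change of 1.66 and an adjusted p of 0.00361 by limma-voom. Dusp6, an ERK phosphatase gene, was at 113, 125 and 139 CPM against 79.7, 73.5 and 51.5 CPM, and limma-voom with the block put its log2 fold change at 0.91 (adjusted p = 0.0154). The Sprouty genes, which encode feedback inhibitors of receptor tyrosine kinase signaling, moved in both directions. Spry1 was higher, at 156, 123 and 116 CPM against 103, 60.3 and 44.8 CPM, with a block log2 fold change of 1.00 and an adjusted p of 0.00681 by limma-voom. Spry4 was also higher within each tumor, at 93.5, 41.3 and 34.5 CPM against 62.7, 23.5 and 21.8 CPM, with an adjusted p of 0.0238 by limma-voom with the block. Spry2 was lower, at 87.4, 51.3 and 41.5 CPM against 145, 115 and 119 CPM, with a block log2 fold change of -1.12 and an adjusted p of 0.00444 by limma-voom. Myc, a growth-promoting transcription factor gene, was lower as well, at 278, 252 and 189 CPM against 488, 440.0 and 437 CPM, with a block log2 fold change of -0.94 and an adjusted p of 0.0038 by limma-voom. In edgeR with the block Dusp4, Spry1, Spry2 and Myc passed, and Dusp6 (0.0630) and Spry4 (0.0520) did not. Spry4 also missed the threshold in limma-voom with the block without tumor 1 (0.0525) or tumor 2 (0.273). The pericyte marker sum was higher in the CD34- group, although 2 of its 6 markers, Abcc9 and Kcnj8, were lower there, and its part in the values of these genes was not tested.

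**Figure D4:**
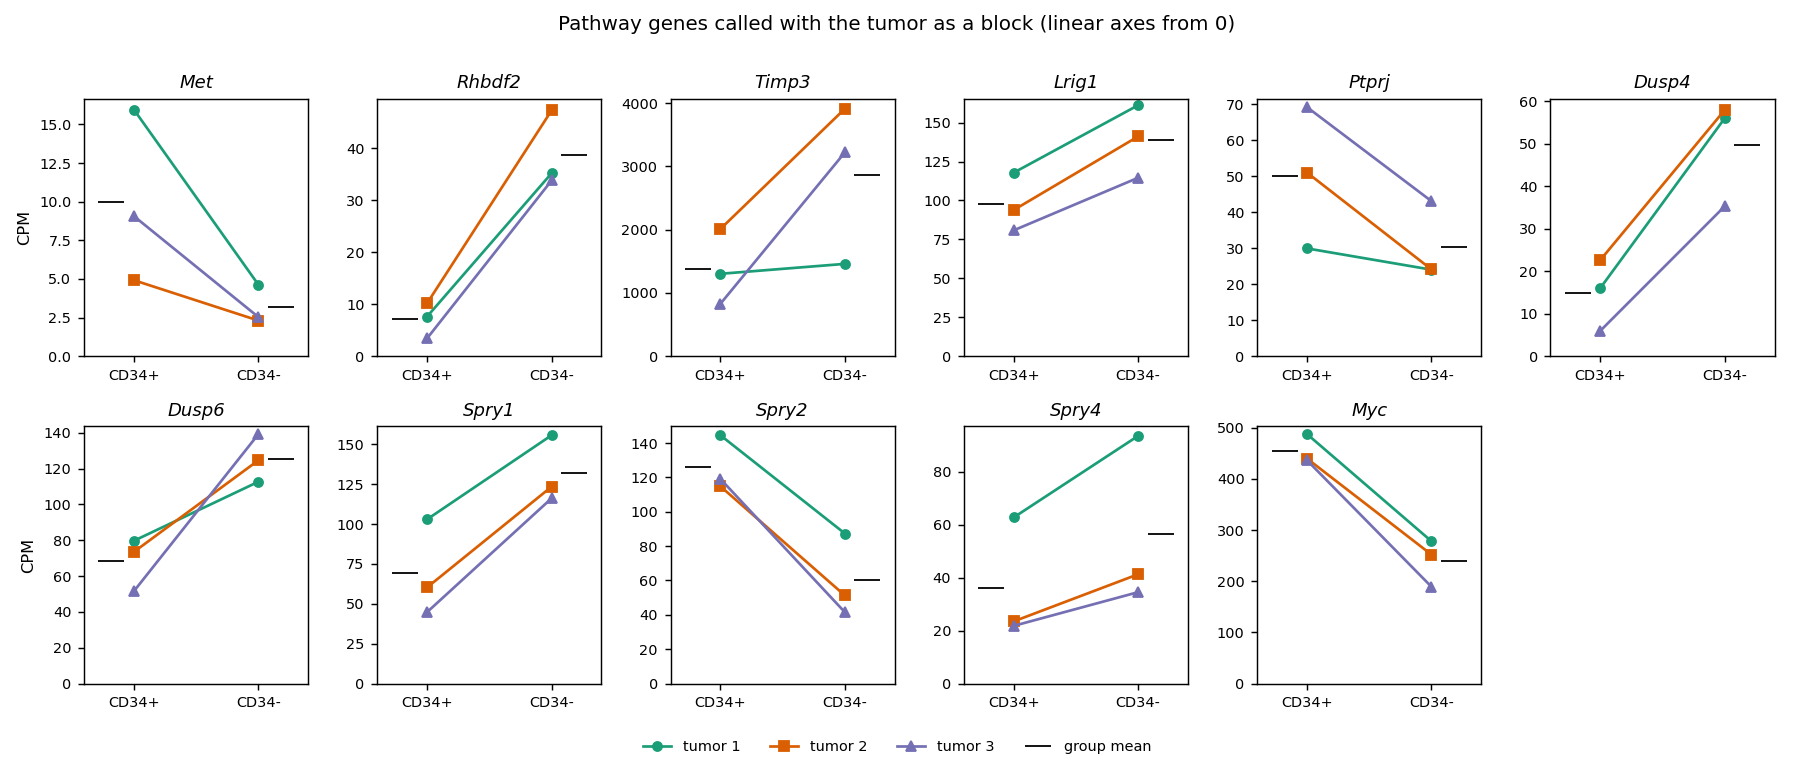
CPM in each library of the 11 pathway genes called by limma-voom with the tumor as a block (linear axes from 0), with CD34+ CAFs on the left and CD34- CAFs on the right of each panel, a line joining the 2 fractions of a tumor and a short bar at the group mean. Met, Ptprj, Spry2 and Myc were lower and the other 7 genes higher in the CD34- fraction of each tumor.

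Among 11 attenuators of the receptors, Lrig1, which encodes a membrane protein that lowers ErbB receptor levels, was higher with the block (0.52, adjusted p = 0.0344 by limma-voom), at 161, 141 and 115 CPM against 118, 93.9 and 80.8 CPM. Ptprj, a receptor tyrosine phosphatase gene, was lower with the block (-0.76, adjusted p = 0.0303 by limma-voom), at 24, 24.1 and 43.1 CPM against 30.0, 51.1 and 69.3 CPM. With the block, edgeR called neither, at 0.0791 for Lrig1 and 0.0994 for Ptprj, and in limma-voom with the block both missed the threshold once tumor 2 was left out, at 0.347 for Lrig1 and 0.340 for Ptprj, as did Lrig1 without tumor 1 (0.0592). With the block in limma-voom, where 8.57% of all genes tested passed, 0 passed of 7 genes of proteases that activate HGF and their inhibitors. Likewise, 0 passed of 16 genes of receptor adaptors and kinases. The most abundant of these were Plat (-0.18, adjusted p = 0.712 by limma-voom) and Plau (-0.02, adjusted p = 0.98), both plasminogen activator genes, and Stat3 (0.17) and Ptpn11 (0.28), which encode a transcription factor and a phosphatase downstream of the receptors.

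**Figure D5:**
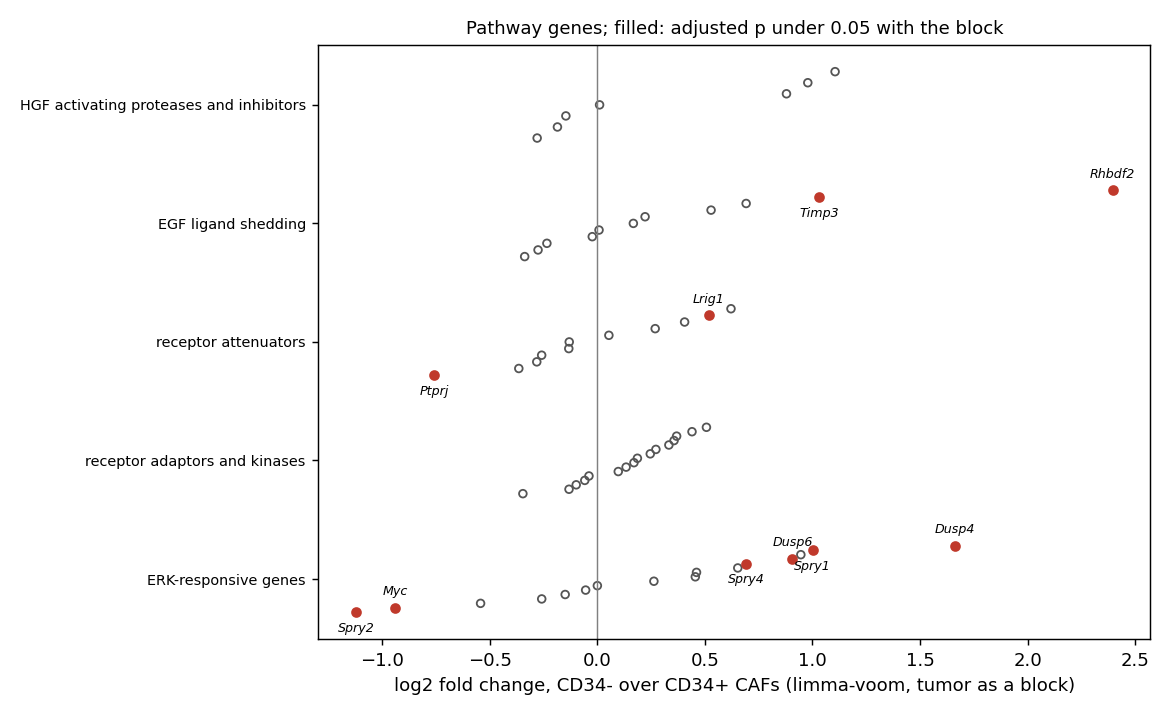
Log2 fold change of CD34- over CD34+ CAFs, from limma-voom with the tumor as a block, for each tested gene of 5 pathway lists, one point a gene and one row a list, with points spread vertically for legibility only. Filled points had an adjusted p under 0.05, with Rhbdf2 farthest to the right at 2.40 and Spry2 farthest to the left at -1.12.

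Likeness to each of the 5 members with a mean of at least 3 on the log2 CPM scale was measured by Pearson's correlation over the 6 libraries, among 8943 genes of at least that level, and is a description only. The nearest genes were Tipin (0.996), Stmn1 and Csnk2a2 (0.993 each) for Hgf, Prkar1b (0.995), Mrpl12 (0.991) and Kpna3 (0.990) for Ereg, and Rab15 (0.987), Plet1 (0.981) and Sema6a (0.979) for Hbegf. They were Tmed10 (0.991), Naxe (0.988) and Chsy3 (0.981) for Nrg1, and Ddr2 (0.995), Antxr2 (0.993) and Ifi211 (0.991) for Egfr. The 6 points come from 3 tumors and differ in depth.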

How the data were processed

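Poly(A) RNA of sorted CAFs was measured in 6 libraries made with a kit that does not mark strand (TruSeq RNA v2). The authors aligned reads to GRCm38 (mm10) and counted them per gene with featureCounts, and the deposited values are raw counts per gene, not normalized, with each library kept apart. Handling of reads with several matches is not given in the sources used here, so values of overlapping or near-identical genes are uncertain. Group and tumor came from the sample titles.

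With tools named in the study's methods, low-count genes were removed with filterByExpr (minimum count 10) and scaling used TMM. The groups were compared by limma-voom, two-sided, with Benjamini-Hochberg adjustment over 14855 genes at a threshold of 0.05. The study also removed genes without annotation, which were kept here, and its methods state no term for the tumor. The fit without the tumor called 3 genes higher in CD34- CAFs. The paper reports many more as upregulated there, so that fit does not reproduce its list. Versions were 3.58.1 for limma, 4.0.16 for edgeR, 1.42.0 for DESeq2 and 4.3.3 for R. The scripts were tested on simulated data. Both fractions of a number came from the same tumor, and their deviations from the group means correlated at 0.373, 0.350 and 0.219. A fit with the tumor as a replicate block is therefore also given, for many genes whether or not it changed a call. Replicates are 3 tumors. Without the block, p-values treat the 6 libraries as independent and measure the spread between libraries of a group. With the block, p-values measure how far the difference between the fractions varies from tumor to tumor. Levels between genes used CPM per kb of annotated length. Limits for a count of 0 stand for 3 counts and cover counting error only.

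Members and gene lists were chosen with earlier results of these data known. Named genes were the 10 members, all other ligands and receptors, in each other list the genes called in either fit (at most 6) or else the 2 with the largest mean log2 CPM, the 3 genes most alike to each abundant member, and the top marker genes. Positions and promoter sequences are from RefSeq on GRCm38.p6, where 5 of 10 members had a promoter entry. In all, 26 other settings were tried.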

Additional observations from a re-analysis of the deposited data

How the results depend on the processing

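Without the tumor, limma-voom called 18 genes. The count was 32 with library totals in place of TMM, 9 in edgeR, 698 in DESeq2 and 161 with quality weights, and with the tumor as a replicate block it was 1273 in limma-voom, 575 in edgeR, 1733 in DESeq2, 1155 after thinning to the smallest library and 703 with the tumor as a random effect, the last chosen after seeing the data. Leaving out single libraries or tumors gave between 0 and 2019. The count was 0 without the CD34- library of tumor 3 (2217 genes at an unadjusted p under 0.05), the CD34+ library of tumor 2 (1555), tumor 2 (1123) or tumor 3 (1641), all in limma-voom. Members called numbered 0, and 1 (Egfr) with the block in limma-voom, in DESeq2, after thinning or as a random effect, with 0 to 2 when libraries or tumors were left out. Pathway genes called numbered 0, then 6 in DESeq2, 1 with quality weights, and with the block 11 in limma-voom, 5 in edgeR, 12 in DESeq2, 10 after thinning and 6 as a random effect, with 0 to 12 in the leave-one-out fits.

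Log2 fold changes turned sign as follows, and the cause was not tested. Ereg was at 0.46 and Nrg4 at 0.081 with quality weights. Tgfa was at 0.81 in edgeR, 0.78 in DESeq2, 0.11 in limma-trend and 1.32 with quality weights, and with the block at 0.63 in limma-voom and 0.13 in edgeR. With the block Tgfa stayed negative in DESeq2 (-0.20) and as a random effect (-0.03). Erbb3 was at 0.38 in edgeR, 0.37 in DESeq2 and 0.61 with quality weights, and with the block in limma-voom at 0.37, or 0.24 after thinning. With the block it stayed negative in edgeR (-0.54), in DESeq2 (-0.63) and as a random effect (-0.89). Plau stayed near 0, at 0.024 without the filter, 0.0126 in edgeR, 0.000864 in DESeq2, 0.0107 in limma-trend and 0.0153 with quality weights, and with the block at 0.0102 in limma-voom, 0.0117 in edgeR, 9.38e-05 in DESeq2 and 0.0254 after thinning. With libraries or tumors left out, the fold change ran from -3.60 to 0.039 for Areg, from -1.53 to 0.57 for Ereg, from -0.16 to 0.25 for Hbegf, from -1.08 to 1.53 for Tgfa, from -0.25 to 1.38 for Nrg1, from -2.15 to 0.90 for Erbb3, from -2.38 to 0.54 for Nrg4 and from -0.16 to 0.22 for Plau. Tgfa and Nrg2 had at most 43 counts in any library, which limits the precision of their values.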
